A study of Mus musculus with 30 samples.

Results

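The genotype by stimulus interaction asked, gene by gene, whether the difference between TRα1PV and wild-type (WT) macrophages changed when the cells were given lipopolysaccharide (LPS) with interferon-γ. It is the difference of 2 differences: TRα1PV minus WT in stimulated (M1) cells, minus TRα1PV minus WT in unstimulated (M0) cells. It covered 20 of the 30 libraries, chosen by genotype and treatment in the sample titles, with 5 biological replicates in each of the groups WT M0, TRα1PV M0, WT M1 and TRα1PV M1. It was computed for each of 15686 genes that passed a filter on low counts.

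The cells were mouse bone marrow-derived macrophages, grown from marrow for 7 days in medium with 15 or 20% L929-conditioned medium, which supplies the macrophage growth factor CSF1. TRα1PV is a mutant thyroid hormone receptor α1 that lacks hormone binding and interferes with the normal receptors. The mutant mice are described as transgenic, with zygosity, age, sex, strain and time in stimulus not given in the sources used here. M0 cells of both genotypes were left unstimulated, and M1 cells of both genotypes received 20 ng/mL LPS and 20 ng/mL interferon-γ. The remaining 10 libraries, M2 cells of both genotypes given 20 ng/mL interleukin-4, entered the estimate of the spread and 1 side comparison.

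As background, thyroid hormone receptors sit on DNA as partners of retinoid X receptors, and recruit co-repressors without hormone and co-activators with it. LPS acts through Toll-like receptor 4, which starts NF-κB and MAP kinase signalling and, through the adaptor TICAM1, production of interferon-β. Interferon-β acts through transcription factors that bind interferon-stimulated response elements (ISRE), and interferon-γ through factors that bind gamma-activated sites (GAS). A set of genes induced by these pathways is also expressed at a low level in resting macrophages.

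Levels are CPM, the reads of a gene per 1000000 reads of its library after TMM scaling. Differences are log2 fold changes from 1 edgeR quasi-likelihood fit, given ± an approximate standard error. Calls were made where p, adjusted by Benjamini-Hochberg over all genes tested, was under 0.05. A positive interaction means that the TRα1PV to WT ratio was higher in M1 than in M0. The same number tells whether the M1 to M0 ratio, the response to the stimulus, was higher in TRα1PV than in WT. For a gene that falls with the stimulus in WT, a positive interaction means a smaller fall in TRα1PV, or a rise. The interaction uses the same libraries as the M0 and M1 genotype differences, which are therefore set beside it as its parts and not as support for it. Whether replicates came from separate animals is not stated beyond the words biological replicate, so p-values measure the spread between these samples. The labels give that replicate number under the tag batch, and the fit reported leaves it out; a fit with it as a block is given where it changes a count.

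The 20 libraries held 28853000 to 59086000 reads in genes (rounded to 5 digits). WT M0 replicate 2 stood apart, with 4.56% of its reads in genes from mitochondrially encoded genes where the other 4 of its group had 0.921 to 2.07%, and with 13.9% of its reads outside genes, where those had 9.42 to 11.7%. The share outside genes was 11.7 to 14.4% in TRα1PV M0, 8.66 to 10.8% in WT M1 and 9.48 to 11.3% in TRα1PV M1, so it moved with genotype in M0 and its part in the results was not tested beyond a fit with that share as a covariate. M1 and M0 were separated along the first principal component, which took 95.4% of the variance over the 1000 most variable genes. The macrophage genes Csf1r, Adgre1 and Lyz2 stood at 4344 ± 598, 1460.1 ± 178 and 23319 ± 1407 CPM in WT M0, and at 531 ± 93.9, 1988 ± 301 and 3288 ± 700.4 CPM in TRα1PV M1 (SD, n = 5, as for all levels below).

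The interaction was called for 4175 genes (26.6% of those tested), of which 2091 were higher (13.3%) and 2084 lower (13.3%). List counts below stand beside these shares, and a count near 13.3% does not set a list apart from all genes. It was over 1 on the log2 scale for 238 called genes and under -1 for 422. Its median was 0.01 over all genes tested, and the median size of a called interaction was 0.54. The genotype difference itself was called for 4072 genes in M0 (26.0%) and for 3132 in M1 (20.0%), 2 comparisons that share no library. The stimulus itself changed 12487 genes in WT (79.6%, with 39.4% higher and 40.2% lower) and 12658 in TRα1PV (80.7%, with 40.0% higher and 40.7% lower).

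Genes with a genotype difference in the resting cells and genes with one in the stimulated cells overlapped only in part. Of the genes called in both states, 673 differed in the same direction and 377 in opposite directions. The opposite ones comprised 172 that were higher in TRα1PV in M0 and lower in M1, and 205 that were lower in M0 and higher in M1. A difference was called in M0 alone for 3022 genes and in M1 alone for 2082. Among the 4175 genes with a called interaction, the genotype difference was larger in size in M0 for 2301 and in M1 for 1874.

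**Figure D1:**
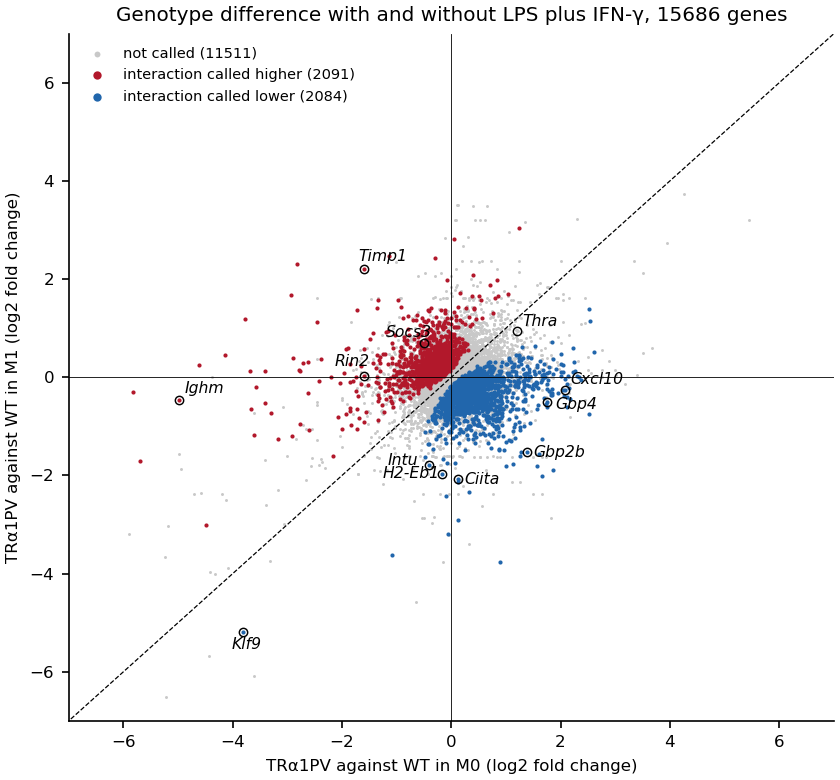
TRα1PV against WT in M0 (horizontal, log2 fold change) and in M1 (vertical, log2 fold change), 1 point per tested gene, red for the 2091 genes with a higher and blue for the 2084 with a lower interaction. On the dashed line the genotype difference is the same in both states; Cxcl10 and Gbp4 lie to the right of it with a difference in M0, and Ciita and H2-Eb1 below it with a difference in M1.

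Most type I interferon-stimulated genes had lower interactions. Of 46 tested members, 40 had a lower and 0 a higher interaction, with a median of -1.08 against 0.01 over all genes. With edgeR, DESeq2 and limma-voom alike, and at an unadjusted p under 0.05, the number higher was 0. In M0, 45 of the 46 were higher in TRα1PV (12.0% of all genes were), with a median difference of 1.16, while in M1 2 were higher (9.74% of all genes were), with a median of 0.07. The median response to the stimulus was 3.30 in WT and 2.51 in TRα1PV. The 40 lower calls were 38 to 42 when 1 library was left out.

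Xaf1, which encodes a binding partner of the apoptosis inhibitor XIAP, stood at 22.1 ± 2.86 CPM in WT M0 and 59.5 ± 12.8 CPM in TRα1PV M0, and at 329 ± 8.13 and 356 ± 13.5 CPM in M1. Its interaction was -1.32 ± 0.17 (adjusted p = 6.23e-06), and the levels of the genotypes did not overlap in M0, or in M1, where the difference of 0.11 ± 0.12 was not called. Usp18, the ISG15 protease that damps type I interferon receptor signalling, stood at 9.47 ± 2.42 and 27.8 ± 7.62 CPM in WT and TRα1PV in M0 and at 846 ± 80.9 and 752 ± 48.1 CPM in M1 (interaction -1.72 ± 0.23). Slfn1, a Schlafen family gene, had an M0 difference of 2.01 ± 0.22 and an M1 difference of 0.02 ± 0.14 (interaction -1.994 ± 0.27). Its rise on the CPM scale was nearly equal, larger in TRα1PV by 0.191 CPM. Parp9, a mono-ADP-ribosyltransferase family gene, showed a smaller shift, with differences of 0.82 ± 0.08 in M0 and -0.07 ± 0.08 in M1. In each of these 4 genes the genotypes were apart in resting cells, and the M1 genotype difference was not called.

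Ifit3b, of the IFIT family that binds foreign RNA ends, was the member whose direction of response differed. It went from 8.49 ± 2.33 to 20.7 ± 6.02 CPM with the stimulus in WT, and from 41.6 ± 16.3 to 21.0 ± 5.22 CPM in TRα1PV. The response was 1.28 ± 0.28 in WT and -0.99 ± 0.26 in TRα1PV, both called, and the interaction was -2.27 ± 0.38 (adjusted p = 1.16e-04). Ifit1bl1, a relative, and Ifi44 had interactions of -2.45 ± 0.36 and -2.30 ± 0.42. IFIT genes are close relatives, counted with the treatment of reads shared between copies not given in the sources used here.

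Irf7 (ENSMUSG00000025498), the regulator that amplifies type I interferon production, stood, in replicate order 1 to 5, at 59.9, 37.1, 41.0, 32.0 and 32.4 CPM in WT M0 and at 103, 139, 122, 155 and 68.4 CPM in TRα1PV M0. With the stimulus it reached 2563, 2751, 2429.6, 2336 and 2861 CPM in WT and 2976, 2474, 2671, 2492 and 3006 CPM in TRα1PV. Every TRα1PV library was above every WT library in M0, and the genotypes overlapped in M1. The interaction was -1.47 ± 0.27 (adjusted p = 3.38e-04), but its rise on the CPM scale was larger in TRα1PV by 58.5 CPM, so the direction of this difference depends on the scale.

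Of the 28 interferon receptor, JAK-STAT and IRF genes, 6 were called lower and 5 higher, with a median of 0.02. Jak2 and Ifngr1, a kinase and a receptor gene of the interferon-γ pathway named here after their values were seen, had interactions of -0.36 ± 0.13 and -0.30 ± 0.09. Socs3, described with the other signalling brakes, was among the members called higher.

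The GTPases induced by interferon-γ, which coat and break pathogen-containing vacuoles, had the lowest median of the lists described here. Of 20 tested members 19 had a lower interaction and 0 a higher one, and the median was -1.63. The number higher was 0 with edgeR, with DESeq2, with limma-voom and at an unadjusted p under 0.05. In M0, 19 were higher in TRα1PV (12.0% of all genes were, median 1.34). In M1, 4 were lower and 0 higher with edgeR, also 0 at an unadjusted p under 0.05 (median -0.28). The number called lower in the interaction was 19 without any 1 of the 20 libraries.

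Gbp4 (ENSMUSG00000079363), a guanylate-binding protein gene, stood at 3.37, 2.91, 1.989, 1.42 and 2.30 CPM in WT M0 and at 6.57, 7.78, 11.5, 9.54 and 4.35 CPM in TRα1PV M0. In M1 it stood at 1571, 2330.2, 2393, 2153 and 2248 CPM in WT and at 1458, 1489, 1416, 1634 and 1548 CPM in TRα1PV. The genotypes did not overlap in M0, where TRα1PV was higher, and overlapped in M1 only through WT replicate 1. The M0 difference of 1.76 ± 0.21 and the M1 difference of -0.50 ± 0.17 were both called, in opposite directions, and the interaction was -2.26 ± 0.27 (adjusted p = 2.71e-06).

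Gbp2b, another guanylate-binding protein gene, had the most negative interaction among named genes with at least 30 reads in each of the 4 groups, -2.90 ± 0.54. It rested on few reads in M0, at 0.291 ± 0.146 CPM in WT and 0.696 ± 0.433 CPM in TRα1PV, and in M1 it stood at 291 ± 92.9 and 102 ± 26.7 CPM. The M1 levels did not overlap, and the M0 levels did. Ifi47, an immunity-related GTPase gene, had the smallest p of the list and stood at 29.3 ± 6.68 and 82.0 ± 15.2 CPM in M0 and at 382 ± 28.6 and 342 ± 32.0 CPM in M1 (interaction -1.65 ± 0.17, adjusted p = 2.00e-07). Igtp, which encodes IRGM3, had differences of 1.17 ± 0.12 in M0 and -0.17 ± 0.12 in M1, and Gbp9 of 1.43 ± 0.15 and -0.18 ± 0.14. Olfr56, an olfactory receptor gene that overlaps the Ifi47 locus, moved like Ifi47 (interaction -2.25 ± 0.25) and is uncertain. Gbp and IRG genes have close paralogs, and reads shared between copies are an added uncertainty.

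Promoter sequence is shown for 3 of these induced genes, to give the letters of the interferon motifs beside genes whose resting level differed by genotype. Each is the 250 bases before the RefSeq transcription start on mouse build GRCm38.p6, which is not the build of the count files, printed 5′ to 3′ on the gene's strand, with capitals marking matches to ISRE (GAAA, 2 bases of any kind, GAAA) or GAS (TTCNNNGAA) on either strand. Igtp lies on the plus strand (chr11:58199306-58199555) with 1 match of each kind, Cxcl10 on the minus strand (chr5:92348890-92349139) with 1 ISRE match, and Gbp2b on the plus strand (chr3:142594597-142594846) with 1 ISRE match.
Igtp: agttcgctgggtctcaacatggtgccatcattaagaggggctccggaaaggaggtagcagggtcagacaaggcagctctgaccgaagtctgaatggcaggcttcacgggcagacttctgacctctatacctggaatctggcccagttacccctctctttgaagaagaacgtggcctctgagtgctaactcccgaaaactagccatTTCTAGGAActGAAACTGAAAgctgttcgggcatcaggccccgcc
Cxcl10: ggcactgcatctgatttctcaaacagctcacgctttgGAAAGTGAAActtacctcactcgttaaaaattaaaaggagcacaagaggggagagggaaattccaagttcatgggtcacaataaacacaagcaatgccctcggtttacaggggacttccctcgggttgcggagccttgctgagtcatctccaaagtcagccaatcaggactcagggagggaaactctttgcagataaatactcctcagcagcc
Gbp2b: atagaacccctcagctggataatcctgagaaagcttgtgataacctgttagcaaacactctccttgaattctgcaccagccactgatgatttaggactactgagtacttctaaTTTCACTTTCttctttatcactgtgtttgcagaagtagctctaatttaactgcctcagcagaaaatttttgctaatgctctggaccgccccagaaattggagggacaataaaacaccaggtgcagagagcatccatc

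These 3 were picked for holding a match, and the same windows of Ifi47 and Xaf1 held neither motif. Over windows from 250 bases before to 50 after each start, an ISRE match was found for 10 of 11 GTPase genes with a window (90.9%), for 17 of 35 interferon-stimulated genes (48.6%) and for 4.02% of the 10441 tested genes with a window. Among genes called lower in the interaction the share was 6.58%, and among those called higher 3.28%. A GAS match was found for 54.5% of the GTPase genes, 20.0% of the interferon-stimulated genes and 8.15% of all. A direct repeat of AGGTCA with 4 bases between, the classical thyroid hormone response element, was in the window of 0 of the 10441 genes. Its single AGGTCA was in 13.8% of the genes called lower, 16.4% of those called higher and 15.0% of all. The NF-κB consensus was searched as GGGRNWYYCC (R for A or G, W for A or T, Y for C or T). It was in 5.6% of the genes called lower, 6.32% of those called higher and 6.25% of all. Each motif was searched on both strands. These shares describe letters in a short window and do not show binding.

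Part of the markers of inflammatory monocytes had lower interactions, as most interferon genes had. Their 10 tested members summed to 525 to 645 CPM in WT M0 and 1107 to 1403 CPM in TRα1PV M0, mostly F13a1 at 461 ± 38.9 and 1039 ± 68.9 CPM. In M1 the sums were 606 to 869 CPM in WT and 613 to 795 CPM in TRα1PV, and other genes made them up. F13a1 fell to 4.15 ± 0.702 CPM in WT and 9.45 ± 1.35 CPM in TRα1PV. Ms4a4c rose from 7.09 ± 2.54 to 375 ± 75.2 CPM in WT and from 22.9 ± 8.05 to 280 ± 45.7 CPM in TRα1PV. Ly6c2 and Plac8, called lower in the interaction like Ms4a4c, also rose with the stimulus. In WT they went from 2.61 ± 1.27 to 17.5 ± 1.13 CPM and from 1.25 ± 0.723 to 36.8 ± 7.12 CPM. Ccr2, a call lost in 14 of 28 alternatives, and Chil3 were also called lower but fell in both genotypes. Of the 10, 6 were called lower in the interaction (3 without TRα1PV M0 replicate 1), with a median of -0.96. The number called higher was 1. It was 0 with limma-voom, with only the 20 libraries, and without TRα1PV M0 replicate 4, WT M1 replicate 3 or TRα1PV M1 replicate 5. All 10 had reads in every group, and their part in the interferon result was not tested. More cells of a type and more RNA per cell cannot be told apart in these bulk samples.

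**Figure D2:**
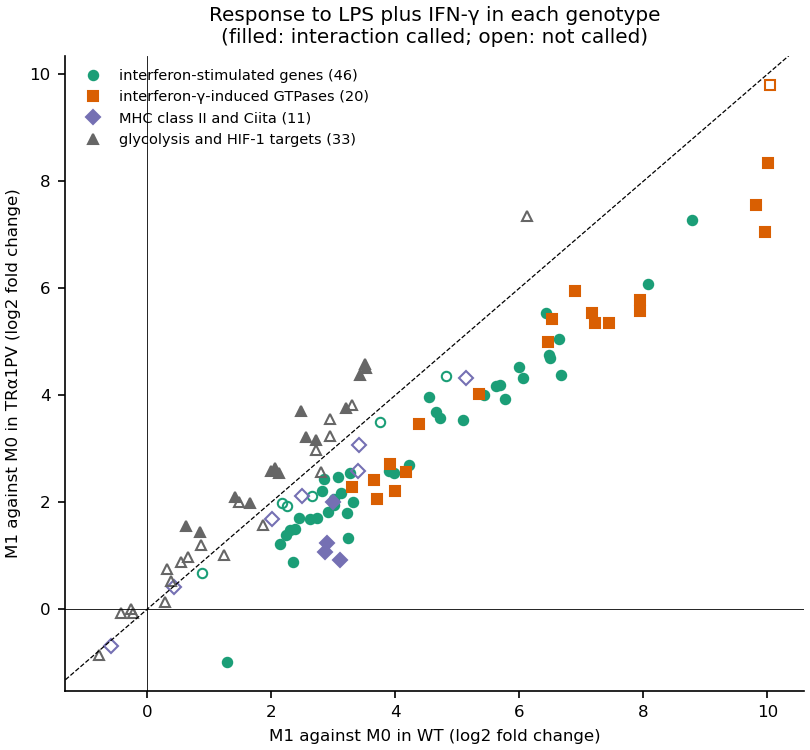
Response to LPS plus interferon-γ (M1 against M0, log2 fold change) in WT (horizontal) and TRα1PV (vertical) for the members of 4 lists, filled where the interaction was called. Interferon-stimulated genes and GTPases lie below the dashed line of equal response, with medians of 3.30 in WT and 2.51 in TRα1PV for the first, and glycolysis genes lie mostly above it.

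MHC class II genes differed in another way, with genotype differences that were called in the stimulated cells for part of the list and not in the resting ones. Class II molecules present peptide antigen to helper T cells, and CIITA is the co-activator that turns their genes on after interferon-γ. Of 11 tested members, 4 had a lower interaction and 0 a higher one, with a median of -0.81; DESeq2, limma-voom and an unadjusted p under 0.05 also gave 0 higher. The M0 difference was called for 0 members in either direction with edgeR, and at an unadjusted p under 0.05 1 was higher and 1 lower (median -0.08), while 6 were lower in TRα1PV in M1 (10.2% of all genes were, median -1.09).

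Ciita (ENSMUSG00000022504) stood at 3.43, 2.99, 2.82, 2.23 and 1.56 CPM in WT M0 and 3.17, 3.72, 3.35, 1.61 and 2.47 CPM in TRα1PV M0. After the stimulus its levels were 25.0, 25.2, 21.7, 17.7 and 23.2 CPM in WT and 3.84, 3.03, 4.68, 6.38 and 8.73 CPM in TRα1PV. The genotypes overlapped in M0, and all 5 TRα1PV libraries lay below the 5 WT libraries in M1. Its rise was 3.11 ± 0.26 in WT and 0.91 ± 0.26 in TRα1PV, and the interaction was -2.20 ± 0.36 (adjusted p = 1.06e-04).

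H2-Eb1 (ENSMUSG00000060586), a class II β chain gene, stood at 25.0, 13.1, 18.9, 9.05 and 8.41 CPM in WT M0 and 14.6, 18.8, 17.9, 4.32 and 11.1 CPM in TRα1PV M0. The M1 values were 113, 125, 93.2, 79.2 and 132 CPM in WT and 25.8, 15.6, 18.5, 29.6 and 49.3 CPM in TRα1PV. As with Ciita, the genotypes overlapped in M0 and were apart in M1, and the interaction was -1.80 ± 0.46 (adjusted p = 0.00508). H2-Aa, an α chain gene, went from 20.9 ± 9.81 to 155 ± 29.9 CPM in WT and from 19.7 ± 8.30 to 46.3 ± 24.3 CPM in TRα1PV (interaction -1.66 ± 0.46). Cd74, the invariant chain gene, had an interaction of -0.98 ± 0.36 (adjusted p = 0.0449), a call that was lost in 13 alternatives, among them the fit of only the 20 libraries (adjusted p = 0.0795). The other 12 each left out 1 library: WT M0 replicate 3, 4 or 5, TRα1PV M0 replicate 1, 2 or 3, WT M1 replicate 1, 2 or 5, or TRα1PV M1 replicate 1, 2 or 3.

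Of 20 MHC class I and peptide loading genes, 3 were called lower (5 with the covariate for reads outside genes), with a median of 0.01. That count is near the 13.3% of all genes called lower. Nlrc5, the class I counterpart of Ciita, stood at 55.03 ± 6.99 and 90.8 ± 10.7 CPM in WT and TRα1PV in M0 and at 530.1 ± 28.8 and 528 ± 38.6 CPM in M1 (interaction -0.73 ± 0.12). The peptide transporter gene Tap1 had differences of 0.60 ± 0.10 in M0 and 0.12 ± 0.10 in M1. The 12 tested markers of dendritic cells, which also carry class II, summed to 38.4 to 96.5 CPM in WT M0, 69.6 to 92.5 CPM in TRα1PV M0, 627 to 885 CPM in WT M1 and 707 to 917 CPM in TRα1PV M1. Most of the M1 sum was Bst2, at 611 ± 99.2 and 725 ± 66.1 CPM in WT and TRα1PV, a gene that interferon also induces. In M1, 3 of the 12 were lower in TRα1PV, as class II genes were, and 1 was higher. The lower ones were Zbtb46, Xcr1 and Ccr7, at 1.05 ± 0.279, 1.55 ± 0.382 and 136 ± 28.4 CPM in WT M1 and 0.518 ± 0.0715, 0.689 ± 0.198 and 65.0 ± 23.5 CPM in TRα1PV M1, and the higher one was Batf3. Clec9a stood at 4.43 ± 1.01 and 2.91 ± 0.671 CPM, a difference that was not called, and Flt3 at 0.0496 ± 0.0321 and 0.0896 ± 0.0629 CPM. Siglech had 0 reads in M1 in both genotypes. Zbtb46 was the 1 member with a called interaction, lower (2 lower with the covariate for reads outside genes or without WT M0 replicate 2). These genes were named after their values were seen. Their part in the class II result was not tested.

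**Figure D3:**
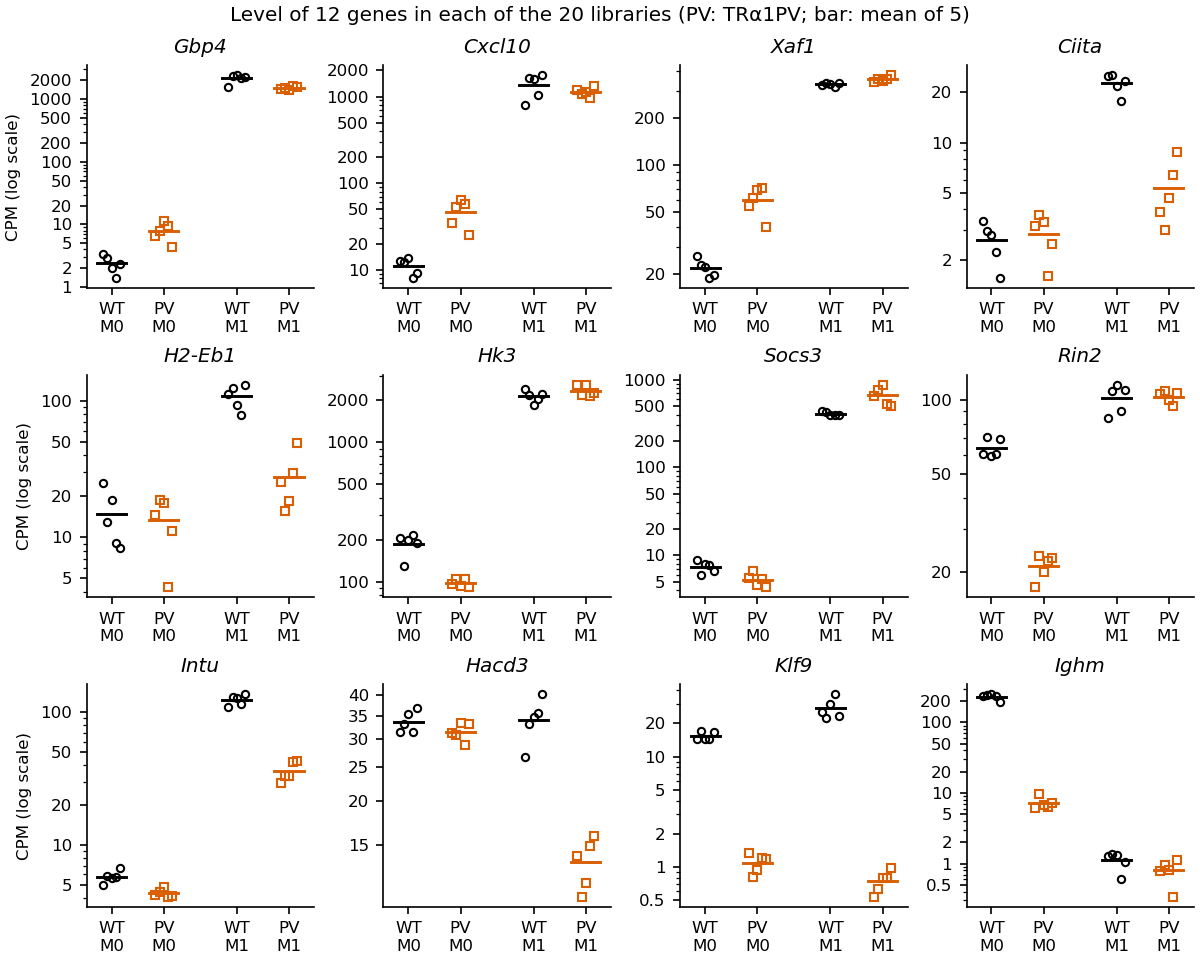
CPM (log axis) of 12 genes in the 20 libraries, circles for WT and squares for TRα1PV, with a bar at the mean of 5 libraries. Gbp4, Cxcl10 and Rin2 were apart between genotypes in M0, Ciita, H2-Eb1 and Hacd3 in M1, and Klf9, Intu and Xaf1 in both.

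Chemokine genes were called at near the share of all genes (13.3% in each direction), with 4 of 24 lower and 3 higher. The lower count was 2 without WT M0 replicate 4, TRα1PV M0 replicate 3, WT M1 replicate 2 or WT M1 replicate 3 and in the fit of only the 20 libraries, and 7 with a replicate block, over genotypes or within them. Cxcl10 (ENSMUSG00000034855), the interferon-induced attractant of T cells, stood at 12.8, 12.2, 13.7, 8.12 and 9.14 CPM in WT M0 and 34.95, 53.1, 63.8, 58.2 and 25.1 CPM in TRα1PV M0. Stimulated cells gave 789.9, 1632, 1575, 1036 and 1754 CPM in WT and 1177, 1063, 1134, 974 and 1307 CPM in TRα1PV. The genotypes were apart in M0 and overlapped in M1, with an interaction of -2.34 ± 0.30 (adjusted p = 6.02e-06). Ccl12, a monocyte attractant gene, had an interaction of -2.11 ± 0.39 from an M0 difference of 2.62 ± 0.33, at 0.359 ± 0.164 and 2.14 ± 0.439 CPM. In M1 it stood at 31.0 ± 12.2 CPM in WT and 44.0 ± 10.2 CPM in TRα1PV, a difference of 0.51 ± 0.20 that was not called. Its rise on the CPM scale was larger in TRα1PV by 11.2 CPM, so its direction depends on the scale. Ccl4, another attractant, went the other way: it fell with the stimulus in WT (-0.57 ± 0.17) and rose in TRα1PV (0.58 ± 0.17), with an interaction of 1.15 ± 0.24.

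Among 25 interleukin and TNF family genes, 8 were lower and 4 higher. Tnfsf10, which encodes the death ligand TRAIL and is interferon-induced, stood at 4.67 ± 1.25 and 15.6 ± 5.43 CPM in M0 and at 118 ± 24.7 and 99.6 ± 6.51 CPM in M1 (interaction -2.002 ± 0.27). Il15 and Il18, cytokines that act on natural killer cells and T cells, had interactions of -0.73 ± 0.12 and -0.84 ± 0.16, and TRα1PV was higher in M0 without overlap in both. Tnfsf4, the OX40 ligand gene, was higher in TRα1PV in both states (1.84 ± 0.17 in M0 and 0.72 ± 0.14 in M1), with an interaction of -1.12 ± 0.22. Its rise on the CPM scale was larger in TRα1PV by 1.10 CPM, so its direction also depends on the scale.

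Of 31 classical activation effector genes, 9 were lower. Fpr2, a receptor for formylated peptides, rose from 0.944 ± 0.577 to 107 ± 23.3 CPM in WT and from 2.10 ± 0.56 to 52.9 ± 20.3 CPM in TRα1PV, with an M0 difference of 1.15 ± 0.33 and an M1 difference of -1.02 ± 0.22. Kynu, which encodes the kynurenine-cleaving enzyme of tryptophan breakdown, crossed in the same way (0.87 ± 0.21 in M0, -0.88 ± 0.15 in M1). Cd38, an NAD-consuming surface enzyme gene, had a higher interaction (1.81 ± 0.33) although TRα1PV was lower in both states, at 2.34 ± 1.03 and 0.356 ± 0.115 CPM in M0 and 271 ± 26.7 and 140.3 ± 14.1 CPM in M1. On the CPM scale its rise was smaller in TRα1PV, by -129 CPM as TRα1PV minus WT, so its direction depends on the scale. Such opposite signs on the CPM scale were found for 52 genes called higher and 77 called lower.

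Inflammasome and cell death genes were lower for 13 of 27 members, with a median of -0.29. The p200 family genes, whose products sense DNA in the nucleus and cytosol and which interferons induce, gave the largest values among those named. Ifi205 had an interaction of -2.12 ± 0.33, with 3.54 ± 1.66 and 14.8 ± 5.15 CPM in M0 and 583 ± 100.2 and 567 ± 83.5 CPM in M1. Ifi204 had -1.41 ± 0.23, and Ifi213, of the same family and named for its size, -2.43 ± 0.33. Their M0 levels did not overlap between the genotypes and their M1 levels did. These family members are close copies, so reads shared between them are uncertain.

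In the Toll-like receptor and NF-κB list, 14 of 47 members were lower and 9 higher. Ticam1, the adaptor of the interferon-β branch, was lower in TRα1PV in M0 (-0.32 ± 0.06) and higher in M1 (0.29 ± 0.06), with an interaction of 0.62 ± 0.09 (adjusted p = 1.78e-05). Bcl3, a nuclear partner of the NF-κB p50 subunit, did the same (-0.66 ± 0.09 and 0.32 ± 0.09), at 115 ± 11.95 CPM in WT M1 and 143 ± 15.8 CPM in TRα1PV M1. Chuk and Ikbkg, which encode IκB kinase subunits, had smaller changes of opposite sign, with interactions of -0.55 ± 0.12 and -0.35 ± 0.07.

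Part of the early response genes and of their brakes had higher interactions. Of 23 AP-1, Egr and Nr4a genes 9 were higher and 0 lower with edgeR, DESeq2 and limma-voom (1 lower at an unadjusted p under 0.05, and with a replicate block or the covariate for reads outside genes), with a median of 0.33. Atf3, a stress-induced repressor, had an M0 difference of -0.38 ± 0.07 and an M1 difference of 0.29 ± 0.07. Of 20 MAP kinase phosphatase and brake genes, 7 were higher and 2 lower. The lower count was 1 without WT M0 replicate 1, 3 or 4, TRα1PV M0 replicate 1, 3, 4 or 5, WT M1 replicate 2, 3 or 5, or TRα1PV M1 replicate 1, 3 or 5. It was also 1 with RLE size factors, with no filter, with only the 20 libraries and with the covariate for reads outside genes.

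Socs3 (ENSMUSG00000053113), which blocks signalling from cytokine receptors of the IL-6 family, stood at 8.75, 6.02, 7.93, 7.72 and 6.63 CPM in WT M0 and 5.47, 6.63, 4.62, 5.32 and 4.33 CPM in TRα1PV M0. In M1 it stood at 437, 425, 394, 393 and 399.9 CPM in WT and 656, 760.1, 870.4, 521 and 502 CPM in TRα1PV. All 5 TRα1PV libraries lay above WT in M1, and the genotypes overlapped in M0. The rise was 5.79 ± 0.19 in WT and 6.97 ± 0.20 in TRα1PV, and the interaction was 1.19 ± 0.23 (adjusted p = 4.67e-04).

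Dusp1 (ENSMUSG00000024190), a phosphatase that switches off p38 and JNK kinases, stood at 24.8, 14.9, 16.6, 16.5 and 16.8 CPM in WT M0 and 13.5, 13.3, 16.98, 15.2 and 11.9 CPM in TRα1PV M0. After the stimulus its levels were 90.9, 90.9, 90.5, 83.0 and 93.5 CPM in WT and 166, 191, 204, 143 and 152 CPM in TRα1PV. It was apart between the genotypes in M1, with TRα1PV higher, and the interaction was 1.26 ± 0.19 (adjusted p = 3.97e-05). Zfp36, whose product tristetraprolin speeds the decay of cytokine mRNA, had an M0 difference of -0.14 ± 0.10, which was not called, and an M1 difference of 0.65 ± 0.10, at 647 ± 87.3 and 1011 ± 129.7 CPM in M1.

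**Figure D4:**
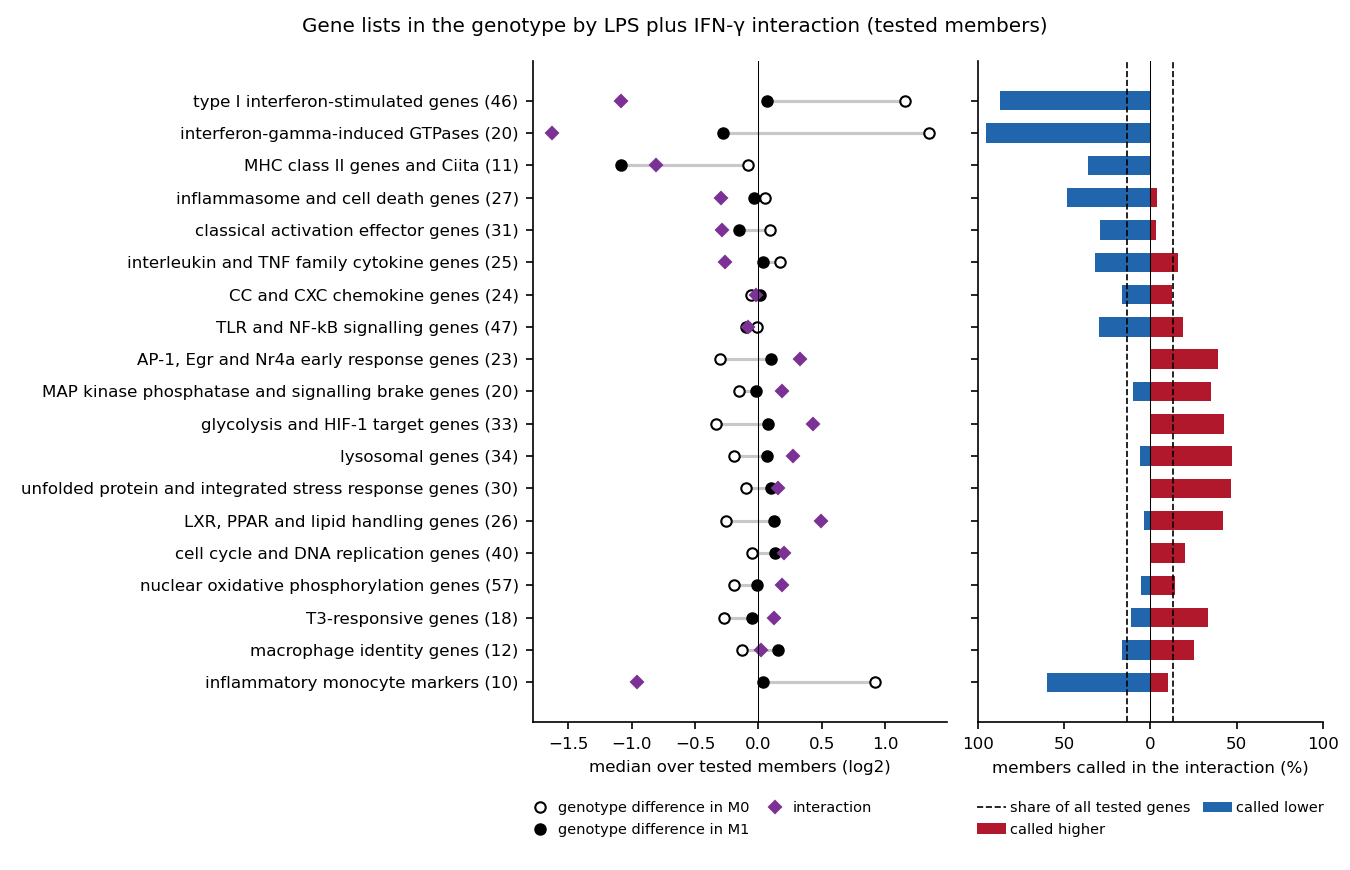
Left, median log2 genotype difference in M0 (open), in M1 (filled) and median interaction (diamond) over the tested members of 19 lists, with the number of members in brackets; right, percent of members called lower (blue) and higher (red) in the interaction, with dashed lines at 13.3% for all genes in each direction. Interferon lists lie to the left with a difference in M0, class II with a difference in M1, and the glycolysis, lysosome and lipid lists to the right.

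Part of the glycolysis genes were lower in resting TRα1PV cells, and fewer were after the stimulus. Of 33 glycolysis and HIF-1 target genes, 14 were higher in the interaction and 0 lower, with a median of 0.43. With edgeR, DESeq2 and limma-voom, and at an unadjusted p under 0.05, 0 were lower (2 without WT M0 replicate 2 and 1 without TRα1PV M1 replicate 5). In M0, 17 were lower in TRα1PV (14.0% of all genes were) and 1 higher. In M1, 2 were lower and 3 higher. The higher count in the interaction was 11 to 20 with 1 library left out, and 19 without WT M0 replicate 2, which stood apart.

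Hk3 (ENSMUSG00000025877), the myeloid hexokinase gene, stood at 205, 131, 198, 217 and 190.2 CPM in WT M0 and 96.0, 105, 94.2, 105 and 91.7 CPM in TRα1PV M0. The M1 values were 2408, 2180.3, 1848, 2034 and 2218 CPM in WT and 2578, 2179.7, 2555, 2154 and 2269 CPM in TRα1PV. TRα1PV was lower than WT in M0 without overlap, and the genotypes overlapped in M1. The interaction was 1.07 ± 0.14 (adjusted p = 5.84e-06), and WT M0 replicate 2 was the lowest of its group. Slc2a1, the glucose transporter gene, had an M0 difference of -0.88 ± 0.10 and an M1 difference of 0.11 ± 0.10 (interaction 0.98 ± 0.14). Slc16a3, the lactate exporter gene, had -0.72 ± 0.10 and 0.23 ± 0.09 (interaction 0.95 ± 0.14), and the glycolytic enzyme gene Tpi1 -0.45 ± 0.07 and 0.21 ± 0.07.

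Lysosomal genes were higher for 16 of 34 members and lower for 2 (4 without WT M0 replicate 2), with a median of 0.27. Neu1, which encodes the sialidase of lysosomes, crossed from lower in TRα1PV in M0 (-0.32 ± 0.08) to higher in M1 (0.24 ± 0.08). Ctsc, the protease that activates granule proteases, was called lower, with 394 ± 61.2 and 712 ± 35.5 CPM in M0 and 2655 ± 362 and 2522 ± 305 CPM in M1 (interaction -0.93 ± 0.14).

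Unfolded protein and integrated stress response genes were higher for 14 of 30 members and lower for 0 with edgeR, DESeq2 and limma-voom (1 at an unadjusted p under 0.05, without WT M0 replicate 2 or without TRα1PV M1 replicate 5). Calr, the calcium-binding chaperone gene of the endoplasmic reticulum, went from 860.2 ± 47.5 to 1464 ± 90.7 CPM in WT and from 583 ± 46.8 to 1521 ± 87.8 CPM in TRα1PV (interaction 0.61 ± 0.09). Dnajb11, a co-chaperone gene of the same compartment, had an interaction of 0.43 ± 0.07. Atf5, a stress-induced transcription factor gene, fell with the stimulus in both genotypes, with responses of -1.44 ± 0.13 in WT and -0.42 ± 0.12 in TRα1PV (interaction 1.02 ± 0.18).

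LXR, PPAR and lipid handling genes were higher for 11 of 26 members, with a median of 0.49. The fatty acid-binding protein gene Fabp4, a PPARγ target, fell with the stimulus from 49.9 ± 7.52 to 8.74 ± 1.44 CPM in WT and from 37.2 ± 10.8 to 19.5 ± 4.80 CPM in TRα1PV. Its interaction was 1.58 ± 0.23 (adjusted p = 1.97e-05), with TRα1PV lower in M0 (-0.42 ± 0.15) and higher in M1 (1.16 ± 0.17). Fabp5 and the lipid droplet coat gene Plin2 had interactions of 1.10 ± 0.18 and 0.83 ± 0.16, and Ppard, a lipid-sensing nuclear receptor gene, 0.76 ± 0.11. Fabp5 stood at 215 ± 34.8 and 366 ± 68.2 CPM in WT and TRα1PV in M1, with no overlap.

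Respiratory chain and cell cycle counts moved with single libraries and settings. Nuclear oxidative phosphorylation genes were higher for 8 of 57, near the 13.3% of all genes, but for 21 without WT M0 replicate 2. They were lower for 3, or 1 without WT M0 replicate 4, TRα1PV M1 replicate 1 or TRα1PV M1 replicate 3, and 6 with the covariate for reads outside genes. The 13 mitochondrially encoded genes were called for 0 members with edgeR, DESeq2, limma-voom and an unadjusted p under 0.05, and for 7, all lower, without WT M0 replicate 2 (1 without TRα1PV M1 replicate 5). Cell cycle genes were higher for 8 of 40, 4 without WT M0 replicate 1, TRα1PV M0 replicate 3 or WT M1 replicate 3, and 5 without WT M0 replicate 4, TRα1PV M0 replicate 4 or TRα1PV M1 replicate 3. The same count was 4 with no filter and 5 with the covariate for reads outside genes. Pcna, the sliding clamp of DNA replication, stood at 87.1 ± 13.03 and 76.2 ± 5.65 CPM in M0 and 232 ± 18.6 and 317 ± 23.9 CPM in M1 (interaction 0.64 ± 0.12).

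The hormone axis itself gave 1 gene with a negative interaction of a different kind. Klf9 (ENSMUSG00000033863), a transcription factor gene that thyroid hormone induces in many tissues, stood at 14.4, 16.9, 14.4, 14.4 and 16.8 CPM in WT M0 and 1.33, 0.812, 0.93, 1.195 and 1.19 CPM in TRα1PV M0. Stimulated cells gave 25.3, 22.4, 29.7, 36.7 and 23.5 CPM in WT and 0.538, 0.629, 0.787, 0.793 and 0.988 CPM in TRα1PV. The genotypes were far apart in both states, and Klf9 rose with the stimulus in WT (0.84 ± 0.12) and fell in TRα1PV (-0.53 ± 0.21). The interaction was -1.37 ± 0.24 (adjusted p = 1.69e-04), so the difference of -3.81 ± 0.15 in M0 became -5.19 ± 0.17 in M1.

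Thra, the gene of the receptor, was higher in TRα1PV in both states, with an interaction of -0.26 ± 0.14 that was not called (adjusted p = 0.155). It stood at 24.5 ± 1.91 and 56.1 ± 4.03 CPM in M0 and at 25.7 ± 6.06 and 49.2 ± 3.59 CPM in M1. Counts per gene do not tell mutant from normal transcripts and so do not check the genotype. Thrb and Hr had too few reads for a fold, with Thrb at 70 and 51 reads over the 5 WT and TRα1PV libraries in M0 and 1 and 2 in M1, and Hr at 15, 9, 35 and 17 reads in the same order. Rxra, the gene of the receptor's partner, did not differ by a call in M0 (0.07 ± 0.08) and was higher in TRα1PV in M1 (0.75 ± 0.08), at 28.8 ± 1.30 and 48.3 ± 2.54 CPM, with an interaction of 0.67 ± 0.11. Among 24 receptor, transporter and cofactor genes 6 were higher, or 3 without WT M0 replicate 4, without TRα1PV M1 replicate 1 or with no filter, and 3 were lower. Among 18 tested genes known to respond to thyroid hormone 6 were higher and 2 lower in the interaction. A further 12 of that list were not tested. In M0, 7 of the 18 were lower in TRα1PV and 1 higher (14.0% and 12.0% of all genes were), with a median difference of -0.27. In M1, 5 were lower and 2 higher (10.2% and 9.74% of all genes were), with a median of -0.05.

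The genes with the smallest interaction p came from no single list. Rin2 (ENSMUSG00000001768), a RAB5 exchange factor of endocytosis, stood at 60.1, 70.6, 59.2, 60.3 and 69.4 CPM in WT M0 and 17.4, 23.4, 20.1, 22.1 and 22.9 CPM in TRα1PV M0. In M1 it stood at 84.4, 108, 115, 90.1 and 109.7 CPM in WT and 105, 108, 100.2, 94.7 and 107 CPM in TRα1PV. The groups were apart in M0 and overlapped in M1, with an interaction of 1.62 ± 0.13 (adjusted p = 1.98e-09). Trp53inp2, which works in autophagosome formation, and Apobec1, a cytidine deaminase gene, had the same shape, with interactions of 0.88 ± 0.08 and 0.71 ± 0.07. Apobec1 stood at 613 ± 25.7 and 405 ± 23.4 CPM in M0 and at 1151 ± 28.1 and 1244 ± 55.5 CPM in M1.

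Intu and Hacd3 showed the reverse, with the larger difference after the stimulus. Intu (ENSMUSG00000060798), a planar cell polarity and cilium gene, stood at 4.99, 5.87, 5.65, 5.71 and 6.72 CPM in WT M0 and 4.23, 4.46, 4.81, 4.08 and 4.13 CPM in TRα1PV M0. After the stimulus its levels were 110.0, 131, 128, 116 and 136 CPM in WT and 29.3, 32.8, 33.1, 42.5 and 42.8 CPM in TRα1PV. TRα1PV was lower without overlap in both states, with differences of -0.41 ± 0.10 in M0 and -1.78 ± 0.09 in M1 (interaction -1.37 ± 0.13, adjusted p = 1.16e-07).

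Hacd3 (ENSMUSG00000033629), a dehydratase of very long fatty acid synthesis, stood at 31.5, 33.2, 35.3, 31.5 and 36.7 CPM in WT M0 and 31.3, 30.9, 33.3, 29.0 and 33.2 CPM in TRα1PV M0. The M1 values were 26.7, 33.2, 34.7, 35.6 and 40.2 CPM in WT and 14.0, 10.7, 11.8, 14.9 and 15.99 CPM in TRα1PV. It fell with the stimulus in TRα1PV (-1.22 ± 0.09), its response in WT was 0.02 ± 0.09 and not called, and the interaction was -1.24 ± 0.12 (adjusted p = 1.64e-07).

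The largest positive interaction among genes with at least 30 reads in each group was that of Ighm (ENSMUSG00000076617), the immunoglobulin μ heavy chain gene. It stood at 233, 243, 249.6, 233 and 192 CPM in WT M0 and 6.17, 9.83, 6.81, 6.36 and 7.26 CPM in TRα1PV M0. Stimulated cells gave 1.30, 1.38, 1.30, 0.6 and 1.07 CPM in WT and 0.789, 0.943, 0.822, 0.34 and 1.14 CPM in TRα1PV. The genotypes were far apart in M0, and both were low in M1 and overlapped there, and the interaction was 4.52 ± 0.35 (adjusted p = 1.44e-09). The defining B cell genes Ms4a1, Cd79a and Pax5 were at or near 0, at most 0.0243 CPM as a group mean.

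Timp1 (ENSMUSG00000001131), an inhibitor of matrix metalloproteinases, stood at 0.567, 0.485, 0.196, 0.796 and 0.89 CPM in WT M0 and 0.27, 0.262, 0.192, 0.143 and 0.0832 CPM in TRα1PV M0. In M1 it stood at 11.1, 6.86, 4.90, 6.46 and 4.19 CPM in WT and 18.8, 55.6, 54.6, 15.6 and 11.2 CPM in TRα1PV. All TRα1PV libraries were above WT in M1, although they spread widely, and the interaction was 3.82 ± 0.69 (adjusted p = 2.43e-04). Its M0 difference of -1.60 ± 0.61 was not called (adjusted p = 0.05).

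The other large positive values belonged to genes with low levels in at least 1 group. Arg1, the arginase of alternatively activated macrophages, rose from 0.494 ± 0.427 to 7.27 ± 2.83 CPM in WT and from 0.176 ± 0.0445 to 13.5 ± 1.83 CPM in TRα1PV (interaction 2.33 ± 0.58). Rac3, a small GTPase gene, had an interaction of 2.35 ± 0.37 and a called response in TRα1PV (2.38 ± 0.26), with 0.03 ± 0.26 in WT. Cbr2, a carbonyl reductase gene, fell in WT from 5.21 ± 0.831 to 0.446 ± 0.313 CPM and stood at 0.441 ± 0.104 and 0.376 ± 0.233 CPM in TRα1PV (interaction 3.37 ± 0.58). Pcp4l1, a small calmodulin-binding family gene, had 2.18 ± 0.24, and the matricellular gene Ccn2 2.56 ± 0.68.

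Genes of fibroblasts lay beside these last values. The 13 tested stromal markers summed to 8.96 to 30.01 CPM in WT M0, 2.48 to 4.56 CPM in TRα1PV M0, 11.2 to 13.2 CPM in WT M1 and 9.66 to 12.1 CPM in TRα1PV M1. In M0, 12 of 13 were lower in TRα1PV (14.0% of all genes were). In the interaction 5 were higher (8 without WT M0 replicate 3, and 3 without TRα1PV M1 replicate 1 or 2). Acta2, the smooth muscle actin gene, had an interaction of 2.12 ± 0.34. The part of such cells in the values of Ccn2 and Timp1 was not tested.

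Granulocyte markers, whose part in the M0 differences of other genes was not tested, were higher for 2 of 15 in the interaction (13.3% of all genes were). The number lower was 0 in the fit reported. It was 1 with DESeq2, with limma-voom, with no filter, with only the 20 libraries and with a replicate block, over genotypes or within them. It was also 1 without WT M0 replicate 1 or 2 and at an unadjusted p under 0.05. In M0, 12 were higher in TRα1PV and 3 lower (12.0% and 14.0% of all genes were). They summed to 363 to 511 CPM in WT M0, 285 to 487 CPM in TRα1PV M0, 201 to 277 CPM in WT M1 and 161 to 206 CPM in TRα1PV M1, where Elane, the neutrophil elastase gene, had 0 reads in both genotypes. The granulocyte markers S100a8 and Ngp were higher in TRα1PV in M0. S100a8 stood at 18.6 ± 10.9 CPM in WT M0 and 53.8 ± 15.1 CPM in TRα1PV M0, and Ngp at 28.1 ± 19.7 and 66.2 ± 19.7 CPM. Mmp8 and Csf3r went the other way. Mmp8, a neutrophil collagenase gene, stood at 76.8 ± 13.8 and 3.39 ± 0.782 CPM in M0 and 15.0 ± 6.38 and 1.89 ± 0.487 CPM in M1 (interaction 1.47 ± 0.34). Csf3r, the receptor gene for the granulocyte growth factor, had an interaction of 0.74 ± 0.13. At 218 ± 30.7 CPM in WT M0 and 106 ± 9.02 CPM in TRα1PV M0, it made up a large part of the sums. Of 12 macrophage identity genes, 3 were higher and 2 lower. Cd68, a lysosomal membrane glycoprotein gene, had an interaction of 0.60 ± 0.10.

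The same question asked of interleukin-4, TRα1PV minus WT in M2 minus that in M0, called 339 genes (2.16%), 110 higher (0.701%) and 229 lower (1.46%). The 2 interactions share the M0 libraries, so their values are only set side by side. Interferon-stimulated genes were lower for 35 of 46 members with interleukin-4 and GTPases for 14 of 20, against 40 and 19 with LPS plus interferon-γ. Glycolysis genes were higher for 0 of 33 with edgeR (7 at an unadjusted p under 0.05), against 14.

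The M1 genotype difference was then tested against the M2 genotype difference, which leaves out the M0 libraries and called 3418 genes (21.8%), 1660 higher (10.6%) and 1758 lower (11.2%). Of the 46 interferon-stimulated genes, 4 were higher and 1 lower. Of the 20 GTPases 7 were lower, with Gbp4 at -0.80 ± 0.26, and of 33 glycolysis genes 13 were higher and 3 lower. Rin2 (1.82 ± 0.13), Ighm (4.22 ± 0.35), Socs3 (1.94 ± 0.25), Intu (-1.74 ± 0.14), Hacd3 (-1.31 ± 0.12), Ciita (-1.04 ± 0.34) and Klf9 (-2.88 ± 0.21) were called in this comparison. Of the 11 class II genes 1, Ciita, was lower (median -0.09). In M2 itself the genotype difference was called for 2055 genes (13.1%, with 6.14% higher and 6.96% lower), and 6 of the 11 class II genes were lower in TRα1PV (median -0.77), as many as in M1. H2-Eb1 was not called between M1 and M2 (-0.73 ± 0.46, adjusted p = 0.25), and its M2 genotype difference was -1.23 ± 0.33.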

How the data were processed

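PolyA-selected RNA was sequenced from 30 libraries, and the 20 M0 and M1 libraries form the interaction. The authors deposited 1 file per library with unnormalized read counts of each Ensembl gene, made with HTSeq 1.99.2, per the submitters' processing notes, which also name GRCm39, Trimmomatic 0.39, HISAT2 2.2.1 and R 4.3.2. With annotation release and strand setting not given in the sources used here, antisense and overlapping genes are uncertain. Each file held 55414 genes, of which 52081 received a symbol from GENCODE M21 (build GRCm38); no coordinates of the files were used. Reads in genes were 28853000 to 59086000 per library, and no 2 libraries of a group were copies: chi-square divided by its degrees of freedom was 8.64 to 186 over the 40 pairs.

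The filter was filterByExpr on the 6 groups with a count of at least 10 and a total of at least 15. The 15686 genes kept were scaled with TMM factors and fitted with edgeR 4.0.16 in R 4.3.3 (glmQLFit and glmQLFTest, 30 libraries, 1 mean per group, 24 residual degrees of freedom). Tests were two-sided, with Benjamini-Hochberg adjustment over all genes tested and a threshold of 0.05. Standard errors were taken as the absolute log2 fold change over the square root of F. No fold is given for a gene with under 10 reads in any of the 4 groups. Alternatives were DESeq2 1.42.0, limma-voom (limma 3.58.1), RLE size factors, no filter, only the 20 libraries, a replicate block, a covariate for reads outside genes, and leaving out each library.

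The members, the 39 gene lists (914 symbols, 840 tested, 14 replaced by current names) and the choice of genes to name were made with earlier results of these data known. The rule took Thra, Thrb, Klf9 and Hr. It added, among genes with a name and at least 30 reads in each of the 4 groups, the 8 largest positive, 8 largest negative and 8 smallest-p called interactions and up to 4 called members of each list, smallest p first. The text names a part of these, and some are not reported here. F13a1, Lyz2, Csf1r, Adgre1 and the other cell type markers come from a fixed marker list. RefSeq promoter windows (GRCm38.p6) matched 10441 tested genes.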

Additional observations from a re-analysis of the deposited data

Results flagged for a closer look

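Among 296 pairs of a gene named in the text and a group of 5 libraries, 7 held 1 library far from the other 4 (a gap over 0.71 of the group's range), where chance alone gives about 1 in 20. Dusp1 stood at 24.8 CPM in WT M0 replicate 1, the highest of its group, and at 83.0 CPM in WT M1 replicate 4, the lowest. Zfp36 stood at 796 CPM in WT M1 replicate 1 and Dnajb11 at 257 CPM in WT M1 replicate 5, each the highest of 5. Ctsc stood at 650.5 CPM in TRα1PV M0 replicate 5, the lowest of 5. Arg1 stood at 12.2 CPM in WT M1 replicate 4, the highest, and at 10.4 CPM in TRα1PV M1 replicate 4, the lowest.

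The genotype difference was called in opposite directions in M0 and M1 for 18 of 74 examined genes named in the text, and for 377 of all 15686 tested. Each of the 18 had a called interaction. Nearly all named genes were picked for one, so a high count among them was likely in advance. Higher in TRα1PV in M0 and lower in M1 were Gbp4 (interaction -2.26 on the log2 scale), Gbp2b (-2.90), Fpr2 (-2.17), Kynu (-1.75), Chuk (-0.55) and Ikbkg (-0.35). Lower in M0 and higher in M1 were the signalling and stress genes Bcl3 (0.98), Ticam1 (0.62), Atf3 (0.67), Socs3 (1.19) and Atf5 (1.02). The same held for the metabolic and lysosomal genes Tpi1 (0.65), Neu1 (0.56), Fabp4 (1.58), Plin2 (0.83) and Arg1 (2.33). It also held for Pcp4l1 (2.18) and Rac3 (2.35).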

How the results depend on the processing

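Over 28 alternatives the number of genes called higher stayed between 1412 and 3020 (2091 in the fit reported) and the number called lower between 1537 and 2973 (2084). Leaving out 1 library gave 1604 to 3020 higher and 1537 to 2973 lower, the highest without WT M0 replicate 2, which kept 4097 of the 4175 calls, and the lowest without WT M0 replicate 4. DESeq2 called 2348 higher and 2234 lower and limma-voom 2049 and 2197. No filter on low counts called 1412 and 1862, and the fit without the 10 M2 libraries 1564 and 1632. RLE size factors moved the median of all genes by 0.0067. Of all 4175 calls, 3172 were kept in the same direction with only the 20 libraries. No filter kept 3196 and the covariate for reads outside genes 3667. Of 3864 pairs of a named gene and an alternative, 3810 kept the direction and the call, 54 kept the direction and lost the call, and 0 reversed. Nearly all named genes were picked for a called interaction in the same fit, many with a small p. Few losses among them were therefore likely in advance and do not describe all calls.

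Correlations did not show a steady pairing of libraries by replicate number, and with 5 libraries per group they cannot exclude a shared animal or batch. Deviations from the group means of same-numbered libraries correlated by -0.588 to 0.403 between genotypes in M0, -0.365 to 0.34 between genotypes in M1, -0.202 to 0.398 between WT M0 and M1 and -0.269 to 0.397 between TRα1PV M0 and M1. Libraries correlated best with their own number in 0, 2, 1 and 3 of 5 cases in the same order. A replicate block called 2271 higher and 2346 lower, 4135 of them shared with the 4175 in the same direction, and a replicate block within genotype called 2146 higher and 2243 lower. Lower chemokine genes went from 4 to 7 with either block.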
